A study of Rattus norvegicus with 9 samples.

Results

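Kidneys of Dahl salt-sensitive rats (Dahl S) were compared with kidneys of Dahl salt-resistant rats (Dahl R) across coding genes. The comparison used 6 of the 9 arrays of the series, 3 per strain, and the strain label alone placed an array in its group. All rats of both strains were male, 53 days old, born on 1 day, weaned at 30 days and then fed a diet with 0.3% salt, and 1 μg of total RNA per rat was labelled with Cy3. No rat received a high-salt diet, so the comparison is of strain on that diet alone. Litters and preparation days of the rats are not in the labels, so p-values measure only the spread between these samples.

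Dahl S and Dahl R are inbred rat strains selected in opposite directions for the response of blood pressure to dietary salt. The kidney sets how much sodium is kept, through transporters along the tubule and through hormones such as angiotensin II, aldosterone and the natriuretic peptides. The 2 strains also differ at many loci that have nothing to do with that selection, because each was fixed by inbreeding. A probe that overlies a sequence difference between strains can change in signal without a change in RNA; whether probes do so was not tested. In RNA from a whole organ, fewer cells of a type and less RNA per cell cannot be told apart.

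Probes marked well above background made up 60.1% to 70.3% of each array. Markers of the proximal tubule (Slc34a1, Lrp2, Cubn and 4 others), thick ascending limb (Umod, Cldn16, Kcnj1), collecting duct (Aqp2, Aqp3) and podocyte (Nphs1) were well above background on every array, and none of these passed the test between strains. Pvalb, a marker of the early distal convoluted tubule, was well above background on 1 array, a Dahl R array. The macrophage marker Cd163, the fat marker Lep and the liver marker Apoa2 were above background on 0 arrays. Other markers of the same cells were above background on every array: Cd68, Csf1r and Mrc1 of macrophages, Adipoq and Cidec of fat, and Alb of liver. Serpina1, the third liver marker, was so on 2 Dahl S and 3 Dahl R arrays. The Dahl S 1 array stood apart, with r of 0.966 to 0.972 against the other 5 arrays over probes, while those 5 correlated at 0.989 to 0.997 with each other. Part of the gap lay in 1 place on the slide. Counted were spots more than 2 log2 units below both other Dahl S arrays, where those 2 arrays both read above a set level. Of 526 such spots, 514 lay in grid rows 281 to 380 of 532, a band with 19.1% of the spots. The limits of the band were drawn from these same dim spots, so the count inside it describes where they lay and is no test. Such spots numbered 18 on Dahl S 2 and 7 on Dahl S 3. At gene level, without that set level, 178 genes were more than 2 log2 units below both other Dahl S arrays on Dahl S 1. Of these, 177 had a spot in that band, and 0 of the 178 passed the test. So low a reading on 1 of 3 arrays widens the spread within Dahl S, so these genes could hardly pass. They stay counted among the genes tested.

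Levels are log2 signals after subtraction of that array's own 75th percentile, and a difference is the Dahl S mean minus the Dahl R mean on that scale, ± its standard error, with 3 arrays per strain. In limma's fit of these 6 arrays, 598 of 11682 coding probes (5.12%) differed at a Benjamini-Hochberg adjusted p under 0.05. Taken as 1 probe per gene, 582 of 11352 coding genes (5.13%) differed, of which 327 (2.88%) were higher and 255 (2.25%) lower in Dahl S. Of these 582, 192 read at least 2-fold apart, 102 higher and 90 lower. That count takes readings as they stand, also in the 23 called genes above background on no array of 1 strain. For those 23 a fold is only a lower bound. The smallest difference that passed was 0.32, and the median difference over all coding genes was 0.03. In all 582 the 3 Dahl S values lay on one side of the 3 Dahl R values, which was also true of 32.2% of all coding genes tested.

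**Figure D1:**
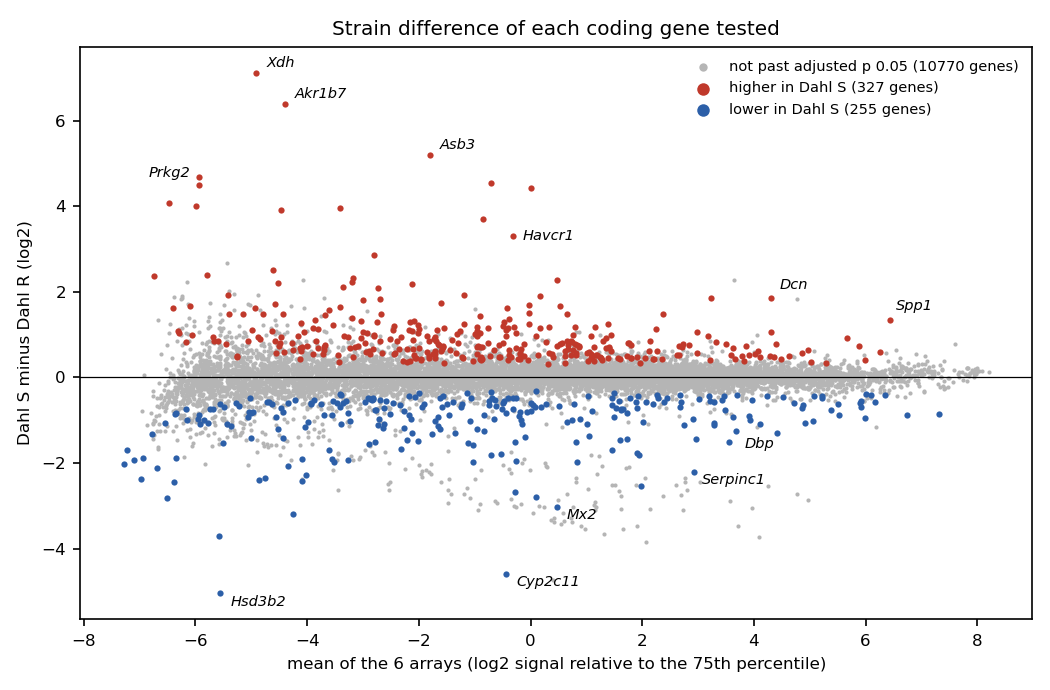
Difference between strains (Dahl S minus Dahl R, log2, vertical axis) of each of 11352 coding genes against its mean level over the 6 arrays (log2, array's 75th percentile set to 0, horizontal axis). Red points are the 327 genes higher and blue points the 255 genes lower in Dahl S at adjusted p under 0.05, and grey points did not pass; the grey points between -2 and -4 at middle levels are mostly the genes read low on the Dahl S 1 array.

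The count of calls rests on how arrays are set against each other. The 3 Dahl S arrays and Dahl R 1 share a scan time in the file headers, and Dahl R 2 and 3 share another. With scan time as a block, which in effect sets the 3 Dahl S arrays against Dahl R 1, 82 coding probes passed. All 598 kept their direction in that fit and within the shared scan alone. Both fits set the 3 Dahl S arrays against Dahl R 1, so genes whose strains do not overlap could only keep their direction. With background corrected by normexp from the uncorrected spot signals, 17 passed and 523 of the 598 kept their direction. Leaving out the dim band of Dahl S 1, an alternative chosen after the data were seen, gave 730 calls with 567 of the 598 among them, and leaving out 1 array gave from 165 calls, without Dahl R 2, to 639, without Dahl S 1. Of 136 called genes followed through every alternative, 56 had an adjusted p under 0.01 and 80 a higher one. When each array was left out in turn, 1 of the 56 and 79 of the 80 lost the call without at least 1 array. Some genes above background in 1 strain only could not be tested when an array of that strain was left out, 9 of the 56 and 9 of the 80, and were counted over the fits that tested them.

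In 6 genes the signal was well above background on all 3 Dahl S arrays and on 0 Dahl R arrays. For these the fold is a lower bound, set against the higher of the gene's own signal and the lowest signal well above background on each Dahl R array. Xdh, xanthine dehydrogenase, the enzyme that makes uric acid from purines, read -1.44, -1.59 and -1.02 in Dahl S and -8.05, -8.64 and -8.70 in Dahl R. Dahl S was thus at least 53.7-fold higher (adjusted p = 9.53e-05), and all 3 Dahl S values were far above the Dahl R values. Of 24 tested genes of urate and purine metabolism, 1 other passed, the urate exporter Abcg2, which was lower in Dahl S by a difference of -0.43 ± 0.07 (adjusted p = 0.0296, up to 0.11 with 1 array left out).

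Akr1b7, an aldo-keto reductase found in the adrenal cortex, read -1.49, 0.61 and -2.75 in Dahl S and -7.95, -7.57 and -7.28 in Dahl R. It was at least 59.3-fold higher (adjusted p = 0.0147), but the Dahl S arrays themselves spread over more than 3 log2 units, and the call was lost with scan as a block (0.145) and without Dahl R 2 or Dahl R 3 (up to 0.0719). It was the only call of 9 tested adrenal cortex genes. Akr1b7 was also listed with smooth muscle, pericyte and mesangium genes of the kidney, where 3 of 19 tested were higher and 1 lower. The summed level of adrenal cortex markers was 1.35 to 1.70 in Dahl S and 1.64 to 1.82 in Dahl R, on a linear scale relative to the 75th percentile, over 5 markers. That sum is mostly Cyp21a1 and Hsd3b1, which differed by -0.16 ± 0.14 and -0.27 ± 0.11. The dimmer Cyp11a1 and Cyp11b1 lay the other way, at 0.38 ± 0.14 and 0.57 ± 0.20. None of these passed (adjusted p from 0.174 to 0.53), and Star was not tested.

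Prkg2, cGMP-dependent protein kinase II, read -3.46, -3.67 and -3.93 in Dahl S and -8.08, -8.34 and -8.12 in Dahl R, at least 10.6-fold higher (adjusted p = 9.53e-05). C10h17orf75 was at least 11.4-fold higher (adjusted p = 0.000462). Reg3g, a secreted antimicrobial lectin, read -3.04, -4.03 and -4.90 against -7.30, -8.32 and -8.32, and was at least 8.23-fold higher (adjusted p = 0.0154). The Reg3g call was lost without Dahl R 2 or Dahl R 3, up to an adjusted p of 0.0776. Clca1, a secreted regulator of chloride channels, was at least 6.33-fold higher (adjusted p = 0.00253). With scan time as a block 4 of the 6 passed, and under normexp 1 did, Xdh.

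In the other direction 17 genes were above background on all 3 Dahl R arrays and on 0 Dahl S arrays, with lower bounds from 1.04-fold. Hsd3b2, a 3β-hydroxysteroid dehydrogenase, headed them. It read -7.86, -8.31 and -8.08 in Dahl S and -2.81, -3.13 and -3.19 in Dahl R, so that the difference was at most -3.39 on the log2 scale (adjusted p = 9.34e-05). Spmap2l followed at -7.56, -7.59 and -7.17 against -3.49, -3.85 and -3.84, at least 6.54-fold lower (adjusted p = 0.000267). Hsd3b5, a paralogue of Hsd3b2, was at least 2.42-fold lower (adjusted p = 0.0277, lost without Dahl S 2 or Dahl S 3, up to 0.0852), and signal shared between these near-identical copies was not tested. These signals were close to background: of the 12 with the largest bounds, 3 passed with scan as a block and 0 under normexp, where 10 of the 12 changed sign.

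Among genes above background on all 6 arrays, the largest rise was of Asb3, an ankyrin repeat and SOCS box protein. Asb3 read 0.82, 0.77 and 0.78 in Dahl S and -4.27, -4.34 and -4.60 in Dahl R, a difference of 5.20 ± 0.10, or 36.7-fold (adjusted p = 4.5e-05). The arrays of each strain lay close together, with a wide gap between strains. Resp18, an endoplasmic reticulum protein of endocrine cells long studied as a Dahl blood pressure candidate, read 2.36, 2.21 and 2.09 against -1.97, -1.99 and -2.66, 21.5-fold higher (adjusted p = 0.000332). Of 23 tested rat hypertension candidate genes, 1 other passed, the glutathione transferase Gstm1, higher by 0.96 ± 0.12 (adjusted p = 0.0144, lost without Dahl S 2 or Dahl R 3). With Resp18 that made 8.70% of the list, against 5.13% of all coding genes.

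Galnt13, which starts O-linked glycosylation of mucins, read -1.42, -1.44 and -1.44 against -4.98, -6.06 and -5.16, with a difference of 3.97 ± 0.28 (adjusted p = 0.00174). Gpbar1, the membrane receptor for bile acids, read -1.36 and -1.37 on Dahl S 2 and 3, its Dahl S 1 spot being marked as an outlier, against -4.29, -4.15 and -4.25 (2.87 ± 0.08, adjusted p = 0.000243). Smaller rises came from Acsl6, an acyl-CoA synthetase (2.50 ± 0.13), Crabp1, which binds retinoic acid (2.33 ± 0.18), the nuclear protein Banp (2.27 ± 0.10), the calmodulin-dependent kinase Camk2d (2.23 ± 0.12) and Jrkl (2.19 ± 0.08). The rest of the 12 largest were NM_001108491.2, a transcript without a current symbol (4.54 ± 0.10), the surface protein Ly6i (3.69 ± 0.17) and Havcr1, described with the injury genes. Gpbar1 lost its call where outlier spots were kept (2.19, adjusted p = 0.101) and in the authors' deposited table (2.16, adjusted p = 0.0986). All 12 passed with any 1 array left out, 11 passed with scan as a block, and 8 under normexp.

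The largest fall was of Cyp2c11, the male-specific cytochrome P450 of rat liver and kidney that also makes epoxides from arachidonic acid. Cyp2c11 read -1.87, -2.62 and -3.71 in Dahl S and 1.79, 2.16 and 1.62 in Dahl R, a difference of -4.59 ± 0.46 (adjusted p = 0.00627). Its call was lost with scan as a block and under normexp (adjusted p = 0.0756 under normexp). Mx2, an interferon-induced GTPase, read -1.16, -1.01 and -0.97 against 1.88, 1.99 and 2.06 (-3.03 ± 0.08, adjusted p = 8.34e-05). Of 30 tested interferon-response genes 1 other passed, the RNA sensor Ifih1, and that was higher, by 0.51 ± 0.08 (adjusted p = 0.0263, up to 0.124 with 1 array left out), while Mx1 differed by -0.13 ± 0.07 (adjusted p = 0.328). Over the 30 genes the median was 0.17, and the share of calls (6.67%) was near the 5.13% of all coding genes.

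Serpinc1, antithrombin, read 1.72, 1.85 and 1.88 in Dahl S and 4.10, 4.02 and 3.95 in Dahl R, 4.62-fold lower (adjusted p = 0.000131). Cdc42ep1, an effector of the GTPase Cdc42, read 0.76, 0.63 and 0.76 against 3.33, 3.24 and 3.18 (-2.53 ± 0.08, adjusted p = 9.09e-05). Sp5, a transcription factor induced by Wnt signals, read -5.09, -5.50 and -4.92 against -2.78, -2.75 and -3.11 (-2.29 ± 0.18, adjusted p = 0.00247). Further falls were of Mlc1, a membrane protein (-2.79 ± 0.26), the phosphatase Ptprq (-1.97 ± 0.17), the calcium-binding copine Cpne4 (-1.92 ± 0.18) and NM_001106213.1 (-1.96 ± 0.37, lost without Dahl S 2 or any 1 Dahl R array, up to an adjusted p of 0.158). Of the 12 largest falls, which include Ly6al, Cyp2d5 and Prcp treated below, 7 passed with scan as a block and 4 under normexp.

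**Figure D2:**
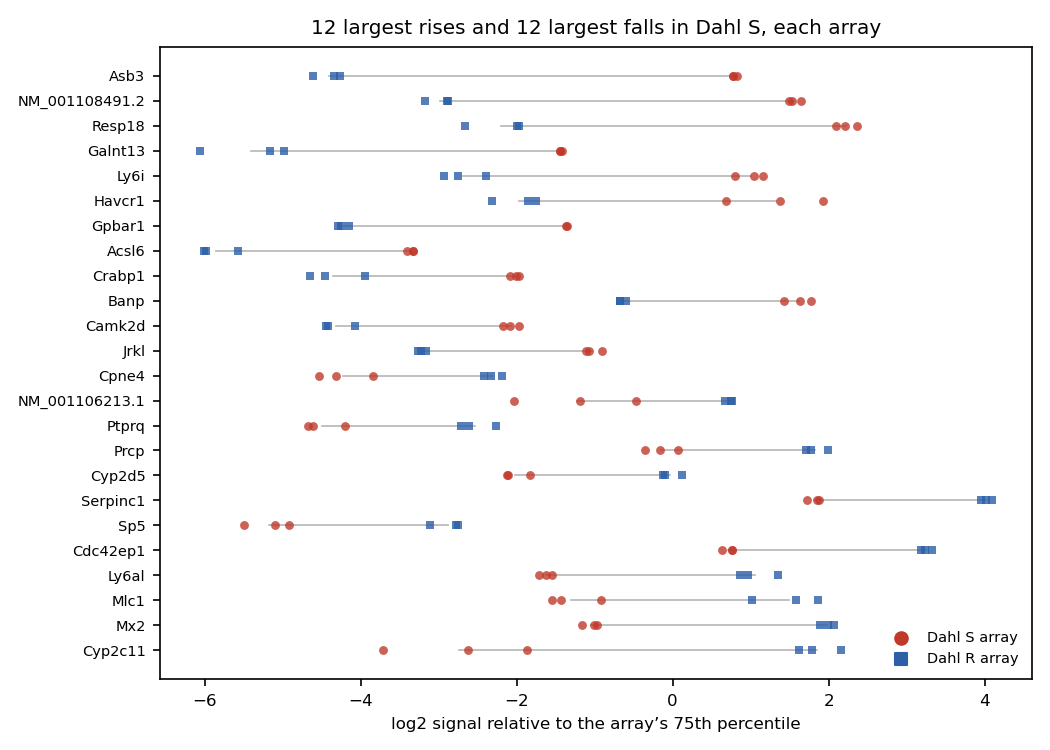
Level on each array (log2, array's 75th percentile set to 0, horizontal axis) of the 12 largest rises (top rows) and 12 largest falls (bottom rows) in Dahl S among genes above background on all 6 arrays. Red circles are Dahl S and blue squares Dahl R arrays, and grey lines join the strain means; in each gene the strains do not overlap, and the spread within Dahl S is widest for Cyp2c11, from -3.71 to -1.87.

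The circadian clock was the gene list with the largest share of calls. Lists were written with earlier results of these data known, so their shares and ranks are descriptions and not tests. The clock is a loop in which the activators Bmal1 with Clock or Npas2 drive their own repressors, among them the Per, Cry and Nr1d1 genes, and output factors such as Dbp and Tef, so the arms peak at opposite times of day; Nfil3 represses targets that Dbp and Tef activate. Of 18 tested clock and output genes 8 (44.4%) passed, 3 higher and 5 lower in Dahl S, against 5.13% of all coding genes, and the median of the 18 was -0.04. All 8 are named here, 4 of them (Bmal1, Npas2, Tef, Ciart) chosen after their values were seen. The hour at which kidneys were taken is not given in the sources used here.

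Of the activators, Bmal1 read 3.12, 3.01 and 2.96 in Dahl S and 2.39, 2.07 and 2.44 in Dahl R (0.73 ± 0.11, adjusted p = 0.0261). Npas2, which can stand in for Clock, read 1.93, 1.70 and 1.64 against 1.06, 0.86 and 1.19 (0.72 ± 0.12, adjusted p = 0.0318). The repressor Nfil3 read 1.63, 1.27 and 1.27 against 0.00, -0.32 and 0.07 (1.47 ± 0.15, adjusted p = 0.00695). These 3 were higher on every Dahl S array than on any Dahl R array.

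The other 5 called genes had the reverse order. Nr1d1, which represses Bmal1, read 2.12, 2.12 and 2.35 in Dahl S and 3.23, 3.45 and 3.22 in Dahl R (-1.11 ± 0.10, adjusted p = 0.005). Dbp read 3.06, 2.90 and 3.19 against 4.14, 4.63 and 4.14 (-1.25 ± 0.16, adjusted p = 0.0145). Per3 read -3.17, -3.32 and -3.04 against -2.35, -2.29 and -2.58 (-0.77 ± 0.11, adjusted p = 0.0213). The output factor Tef and the repressor Ciart fell too, Tef by -1.03 ± 0.18 (adjusted p = 0.0362) and Ciart by -1.12 ± 0.21 (adjusted p = 0.0396). Of the members that did not pass, Per1 differed by 0.17 ± 0.17 (adjusted p = 0.583), Per2 by -0.28 ± 0.10 (adjusted p = 0.181), Cry1 by -0.11 ± 0.13 (adjusted p = 0.635) and Cry2 by -0.92 ± 0.33 (adjusted p = 0.175).

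All 8 kept their sign under every alternative. With scan as a block or 1 array left out that was fixed in advance, since the strains do not overlap in these genes. However, 0 passed with scan as a block and 0 under normexp. With 1 array left out, from 2, without Dahl S 2, to 6 passed. Dbp differed by -1.09 and Nfil3 by 1.38 with scan as a block, at adjusted p of 0.175 and 0.11. Under normexp Per3 differed by -0.06 (adjusted p = 0.938) and Ciart by -0.31 (adjusted p = 0.687), so that little beyond the sign was left of these 2 differences.

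Promoter stretches are shown for the 3 called clock genes whose 250 bases before the start hold a clock motif, because the arms are known by those motifs. The sequences are RefSeq's, build GRCr8, and 15 of the 18 clock genes, all 8 called ones included, were matched by symbol. Capitals mark the E-box CACGTG bound by Bmal1 with its partners, which is its own reverse complement, or the element TAGGTCA bound by Nr1d1 and the ROR receptors, searched on both strands.
Ciart, chr2:186112247-186112359, minus strand, bases -113 to -1: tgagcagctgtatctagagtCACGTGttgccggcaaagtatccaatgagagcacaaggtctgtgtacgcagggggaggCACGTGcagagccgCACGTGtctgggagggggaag
Tef, chr7:115206609-115206658, plus strand, bases -218 to -169: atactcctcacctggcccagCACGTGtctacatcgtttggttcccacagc
Bmal1, chr1:176766292-176766327, plus strand, bases -36 to -1: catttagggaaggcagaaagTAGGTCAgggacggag
The Ciart stretch holds 3 E-boxes. Of 8686 tested genes with a promoter in the table, 7.93% held an E-box in the same window and 1.82% the TAGGTCA element. The D-box TTATGTAA, bound by Dbp, Tef and Nfil3, was in 0.553% of the promoters and in 0 of the 8 called clock genes. Among all 15 matched clock genes, called or not, 3 held an E-box, 2 of them called. The TAGGTCA element was in 1, a called gene, and the D-box in 1 that was not called. A match describes the letters only.

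The list with the most calls in 1 direction was of kidney injury and repair genes, which tubule cells switch on after damage. Of 31 tested, 9 (29.0%) passed, all higher in Dahl S, with a median over the 31 of 0.39 against 0.03 for all coding genes. Havcr1 (Kim-1), the tubular injury receptor, read 1.92, 1.37 and 0.69 in Dahl S and -1.75, -1.85 and -2.32 in Dahl R. That is 9.84-fold higher (adjusted p = 0.00624), with the 3 Dahl S arrays spread over more than 1 log2 unit and all above Dahl R. With scan as a block the difference was 3.07 (adjusted p = 0.103).

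Spp1, osteopontin, a secreted matrix and urine protein, read 7.37, 7.0 and 6.95 against 5.83, 5.77 and 5.69 (1.34 ± 0.13, adjusted p = 0.00522). Fgg, the fibrinogen γ chain, read -1.43, -1.75 and -2.18 against -3.44, -3.59 and -3.82 (1.83 ± 0.21, adjusted p = 0.00979). Fgb, the fibrinogen β chain, read 0.11 and 0.11 on Dahl S 2 and 3, the Dahl S 1 spot being marked as an outlier, against -0.80, -1.23 and -1.22 (1.19 ± 0.16, adjusted p = 0.0251). The third chain, Fga, did not pass (0.56 ± 0.22, adjusted p = 0.201).

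A further 4, named after their values were seen, were the stress cytokine Gdf15 (0.93 ± 0.13), the TWEAK receptor Tnfrsf12a (0.81 ± 0.14), the cell-cycle inhibitor Cdkn1a (0.80 ± 0.13) and the haem-degrading enzyme Hmox1 (0.76 ± 0.10), with adjusted p from 0.0177 to 0.0329. Lcn2 (NGAL), another injury marker, differed by 0.76 ± 0.28 (adjusted p = 0.187), Clu by 0.50 ± 0.11 (adjusted p = 0.065) and the repair marker Vcam1 by 0.19 ± 0.16 (adjusted p = 0.517). Krt20, of injured tubule and urothelium, lay at -1.75 ± 0.39 (adjusted p = 0.0662), the other way from the 9. Of the 9, 0 passed with scan as a block and 0 under normexp, and with 1 array left out from 3, without Dahl R 2, to 8 passed.

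**Figure D3:**
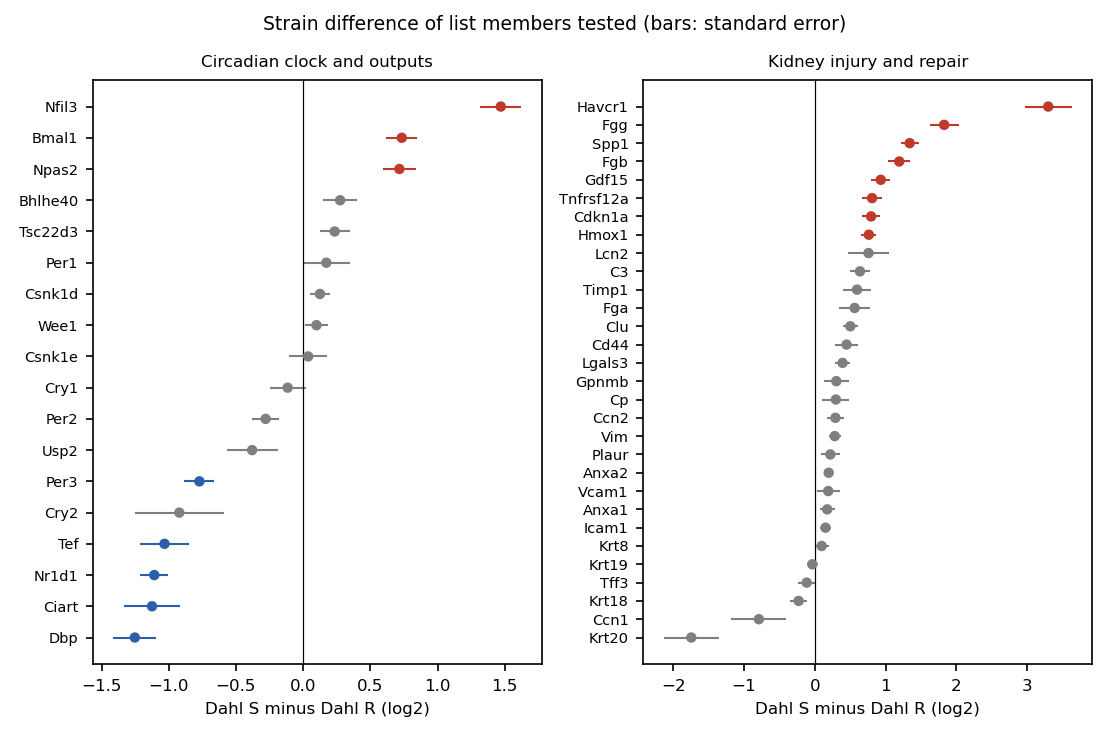
Difference between strains (Dahl S minus Dahl R, log2, horizontal axis; points are estimates and bars 1 standard error) of the 18 tested clock genes (left) and 30 of the 31 tested kidney injury genes (right). Red members are higher and blue lower at adjusted p under 0.05 and grey members did not pass; the clock list splits into 3 higher and 5 lower, and the 8 called injury genes drawn are all higher.

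Of 23 tested early-response genes 3 passed, all higher: Dusp6, a phosphatase that limits ERK signalling (0.92 ± 0.10, adjusted p = 0.00744), the stress factor Atf3 (0.84 ± 0.17, adjusted p = 0.049) and Myc (0.66 ± 0.11, adjusted p = 0.0443). The Myc value leaves out Dahl S 1, whose spot is marked as an outlier; with such spots kept the difference was -0.05, and in the authors' deposited table it was -0.07. Fos differed by 0.77 ± 0.47 (adjusted p = 0.379) and Egr1 by 0.58 ± 0.26 (adjusted p = 0.249). The median of the 23 was 0.37; 0 of the 3 passed with scan as a block, and 1 of the 3 when any 1 array but Dahl S 1 was left out.

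In complement and coagulation 5 of 32 tested genes passed, 4 higher and 1 lower. Besides Fgg and Fgb, the higher genes were the complement inhibitor Cfi, named after its values were seen (1.26 ± 0.21, adjusted p = 0.0321), and Procr, the endothelial protein C receptor (0.69 ± 0.06, adjusted p = 0.00351). Cd59b, which protects cells from complement, fell by -1.31 ± 0.08 (adjusted p = 0.00089). C3 differed by 0.64 ± 0.14 (adjusted p = 0.0667). Only Cd59b passed with scan as a block, and without Dahl R 2 only 2 of the 5 did. Antithrombin, the large fall described above, was not on that list.

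Several enzymes that dispose of drugs and hormones were lower in Dahl S. The kidney, like the liver, oxidises such compounds with cytochromes P450 and then couples them to glucuronic acid or sulfate. Of 22 tested genes on the list of glucuronosyl- and sulfotransferases, which also holds the acetyltransferase Nat8, 7 (31.8%) passed. All 7 were lower, and the median of the 22 was -0.42. Ugt1a9 read 5.60, 5.65 and 5.58 in Dahl S and 6.18, 6.18 and 6.26 in Dahl R (-0.59 ± 0.06, adjusted p = 0.00744). Ugt1a8 differed by -0.55 ± 0.08 (adjusted p = 0.0184) and Ugt1a1 by -0.42 ± 0.08 (adjusted p = 0.0479), and Ugt1a6 by -0.45 ± 0.09 without passing (adjusted p = 0.0521). The Ugt1a genes share their 3' exons, so these probes may read one another's transcripts and are not independent.

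Ugt2b35 read 3.05, 2.87 and 2.31 against 3.79, 3.95 and 3.79 (-1.10 ± 0.19, adjusted p = 0.0362). The sulfotransferases Sult1c3 (-0.88 ± 0.10, adjusted p = 0.0112) and Sult1a1 (-0.61 ± 0.11, adjusted p = 0.0371) and the acetyltransferase Nat8 (-0.57 ± 0.11, adjusted p = 0.0401) completed the 7. Ugt1a1, Sult1a1 and Nat8 were named after their values were seen. Of the 7, 0 passed with scan as a block and 0 under normexp, and with 1 array left out from 2, without Dahl S 2, Dahl R 2 or Dahl R 3, to 6 passed.

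Of 28 tested genes of oxidation and hydrolysis 7 (25.0%) passed, 5 lower and 2 higher, with a median of -0.22. Cyp2c23, the main epoxide-forming P450 of rat kidney, read 5.20, 5.0 and 5.04 in Dahl S and 5.94, 5.91 and 6.01 in Dahl R (-0.88 ± 0.08, adjusted p = 0.00421). Cyp2d5 read -1.83, -2.11 and -2.12 against -0.12, 0.11 and -0.09 (-1.99 ± 0.11, adjusted p = 0.000809). Cyp2d1 read 2.08 and 2.40 on Dahl S 2 and 3, the Dahl S 1 spot being marked as an outlier, against 3.66, 3.74 and 3.62 (-1.43 ± 0.12, adjusted p = 0.00705). Cyp2d2 went the other way at 4.84, 4.78 and 4.87 against 3.70, 3.82 and 3.82 (1.05 ± 0.07, adjusted p = 0.00123). The Cyp2d genes are close copies, and signal shared between their probes was not tested.

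The carboxylesterase Ces1e was lower (-0.94 ± 0.13, adjusted p = 0.0177) and the alcohol dehydrogenase Adh1c higher (0.83 ± 0.11, adjusted p = 0.0147), both named after their values were seen. Of the 7, 2 passed with scan as a block and 0 under normexp, and at least 5 with 1 array left out. Of 16 tested genes of arachidonic acid and epoxide metabolism Cyp2c11 and Cyp2c23 passed, both lower. Both calls were lost with scan as a block and under normexp (adjusted p = 0.0756 and 0.197 under normexp). Cyp4a1, which hydroxylates fatty acids, differed by 0.24 ± 0.08 (adjusted p = 0.162), and Ephx2, soluble epoxide hydrolase, by 0.06 ± 0.09 (adjusted p = 0.725).

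**Figure D4:**
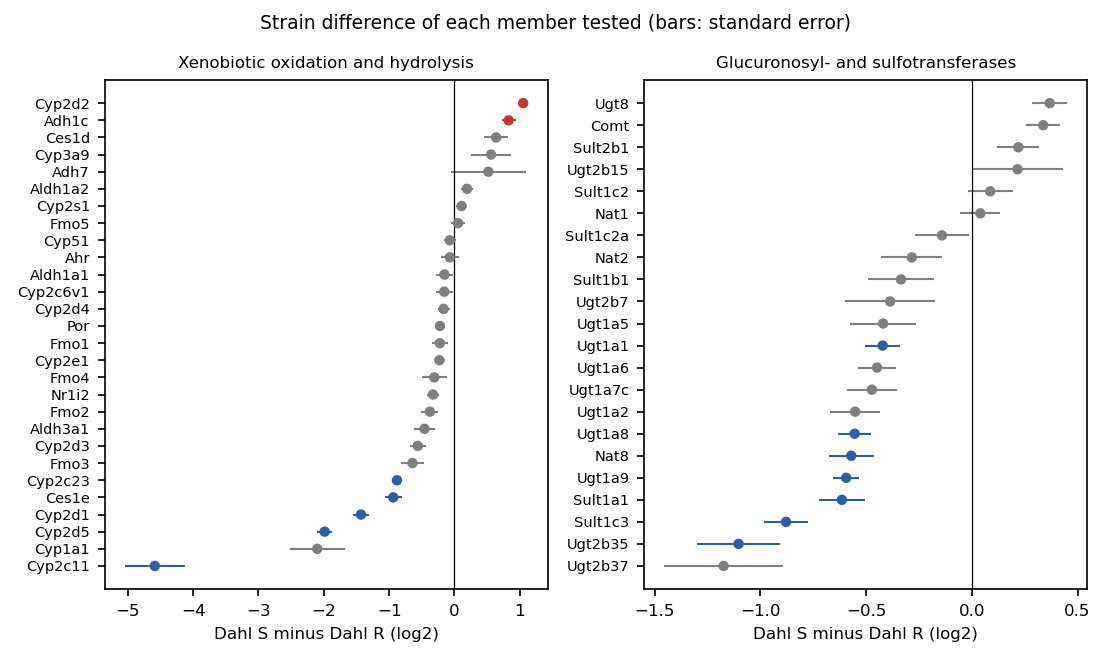
Difference between strains (Dahl S minus Dahl R, log2, horizontal axis; points are estimates and bars 1 standard error) of the 28 tested genes of xenobiotic oxidation and hydrolysis (left) and the 22 tested genes on the list of glucuronosyl- and sulfotransferases, the acetyltransferase Nat8 included (right). Blue members are lower and red higher at adjusted p under 0.05 and grey did not pass; all 7 called members on the right are lower in Dahl S.

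Of 42 tested genes of glutathione and antioxidant defence 5 passed, 3 higher and 2 lower. Gsta4 (-0.69 ± 0.07, adjusted p = 0.00587) and Gsta2 (-0.85 ± 0.12, adjusted p = 0.0205), glutathione transferases of the alpha class, were lower. Gstm1 of the mu class, the extracellular superoxide dismutase Sod3 (0.63 ± 0.07, adjusted p = 0.00942) and Hmox1 were higher. The median of the 42 was -0.08. Of these 5, 0 passed with scan as a block and 2 without Dahl R 3. Gsta2 was named after its values were seen.

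Among 15 tested androgen-regulated kidney genes 5 passed, 4 lower and 1 higher. Besides Cyp2c11 and Cyp2d1, the lower genes were Slc22a2, the organic cation transporter of the proximal tubule (-0.73 ± 0.12, adjusted p = 0.0334), and Acsm3, a medium-chain acyl-CoA synthetase long studied in hypertensive rats (-0.99 ± 0.17, adjusted p = 0.0318). Odc1, ornithine decarboxylase, was higher (0.59 ± 0.08, adjusted p = 0.0149). Kap, the kidney androgen-regulated protein, differed by 0.13 ± 0.10 (adjusted p = 0.485), so the list did not move one way. Of the 5, 0 passed with scan as a block, and 2 without Dahl R 2 or Dahl R 3.

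Of 21 tested steroid genes 5 passed, Akr1b7, Hsd3b2 and Hsd3b5 given above and a pair of 17β-hydroxysteroid dehydrogenases that work in opposite directions. Hsd17b1, which makes active estrogen, read -3.22, -2.98 and -3.29 in Dahl S and -1.45, -1.52 and -1.47 in Dahl R (-1.68 ± 0.10, adjusted p = 0.000824). Hsd17b2, which inactivates estrogens and androgens, read -0.01, 0.26 and 0.25 against -1.28, -0.92 and -0.76 (1.15 ± 0.16, adjusted p = 0.0172). Hsd11b2, which shields the mineralocorticoid receptor from glucocorticoids, differed by 0.25 ± 0.10 (adjusted p = 0.208). With scan as a block 3 of the 5 passed. Without Dahl R 2 the Hsd3b genes were above background on too few arrays to be tested, and of the other 3 genes only Hsd17b1 passed.

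In the renin-angiotensin system, a main hormonal control of blood pressure, 3 of 13 tested genes (23.1%) passed, 1 higher and 2 lower. Prcp, which cleaves angiotensin II, read 0.07, -0.35 and -0.16 against 1.99, 1.72 and 1.78, 3.94-fold lower (adjusted p = 0.00142), and passed with scan as a block (0.0222) and under normexp (0.0183). Anpep, the aminopeptidase that cuts angiotensin III, read 6.41, 6.26 and 6.07 against 5.47, 5.51 and 5.56 (0.73 ± 0.10, adjusted p = 0.0177). The angiotensinogen gene Agt differed by 0.01 ± 0.08 (adjusted p = 0.974) and the receptor gene Agtr1a by 0.02 ± 0.13 (adjusted p = 0.945). Without Dahl S 2 or without Dahl R 2, 1 of the 3 passed.

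Of 16 tested sodium and chloride transporter genes 0 passed, against 5.13% of all coding genes, a share that leaves little room for calls among 16. Their differences ran from -0.28 to 0.34, with a median of -0.02. The thiazide-sensitive cotransporter gene Slc12a3 differed by -0.09 ± 0.09, the sodium channel gene Scnn1a by -0.14 ± 0.14 and the sodium-hydrogen exchanger gene Slc9a3 by -0.09 ± 0.07, with adjusted p from 0.509 to 0.598. One regulator of 15 passed: Sgk1, the aldosterone-induced kinase that raises channel activity, read 4.69, 4.85 and 4.80 against 4.05, 3.80 and 4.17 (0.77 ± 0.11, adjusted p = 0.0206). That call was lost without Dahl S 2, Dahl S 3 or Dahl R 2, and with scan as a block (0.222). The mineralocorticoid receptor gene Nr3c2 differed by 0.04 ± 0.08 (adjusted p = 0.757) and the kinase gene Wnk4 by 0.11 ± 0.10 (adjusted p = 0.56).

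In the nitric oxide and cGMP pathway 4 of 18 tested genes passed, Prkg2 among them. Gch1, which starts synthesis of the nitric oxide synthase cofactor, read -0.37, -0.24 and -0.55 against -1.61, -1.58 and -1.10 (1.05 ± 0.16, adjusted p = 0.0261), and Gucy1a1, a subunit of the nitric oxide receptor, was higher by 0.39 ± 0.07 (adjusted p = 0.0375). Arg1, arginase, which uses the same substrate as nitric oxide synthase, was lower by -1.13 ± 0.15 (adjusted p = 0.0176). Nos3 differed by -2.22 ± 2.01 (adjusted p = 0.541), with a reading of -7.84 on Dahl S 1 and -0.47 and -0.45 on Dahl S 2 and 3. Only Prkg2 passed with scan as a block, and Gch1, Gucy1a1 and Arg1 did not pass without Dahl R 2, Dahl S 2 or Dahl S 3.

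Acid-base transport genes had 3 calls of 19 tested, all higher: Slc4a1, the anion exchanger of intercalated cells and red cells (0.78 ± 0.10, adjusted p = 0.0154), Atp6v1g3, a proton pump subunit (0.62 ± 0.11, adjusted p = 0.0362), and Rhbg, an ammonia transporter (0.73 ± 0.09, adjusted p = 0.0121). The 4 intercalated-cell markers, which include the first 2 of these genes, summed to 33.2 to 37.0 in Dahl S and 24.2 to 31.0 in Dahl R; their part in the result was not tested. Slc26a4, which marks the other kind of intercalated cell, differed by 0.16 ± 0.14 (adjusted p = 0.536). Without Dahl R 2, 0 of the 3 passed, and with scan as a block only Rhbg did.

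Ahsp, the chaperone of α-globin, passed at 1.24 ± 0.22 (adjusted p = 0.0383, up to 0.124 with 1 array left out), with Slc4a1; Alas2, of haem synthesis, reached 0.98 ± 0.20 (adjusted p = 0.0511), and the median of 15 tested red cell and platelet genes was 0.54. The summed level of 3 red cell markers was 275 to 341 in Dahl S and 243 to 261 in Dahl R. That sum is mostly Hbb, a globin gene, which differed by 0.21 ± 0.10 without passing (adjusted p = 0.293). Slc4a1 is counted in it too, and the share of red cells in the tissue was not tested. Epo, erythropoietin, read -2.0, -2.06 and -2.27 against -3.28, -3.74 and -3.19 (1.29 ± 0.17, adjusted p = 0.0149), and without Dahl S 2 its call was lost. It was the only call of 20 tested hypoxia-response genes, whose median was 0.03, a share near the 5.13% of all coding genes.

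Matrix genes showed 1 call of 27 tested (3.70%, against 5.13% of all coding genes), Dcn, decorin, a small proteoglycan that binds collagen. Dcn read 5.62, 5.08 and 5.01 in Dahl S and 3.52, 3.41 and 3.20 in Dahl R, 3.63-fold higher (adjusted p = 0.006; 1.71 and 0.0983 with scan as a block). The collagen gene Col1a2 differed by 0.18 ± 0.23 (adjusted p = 0.667), Col3a1 by 0.12 ± 0.15 (adjusted p = 0.66) and Pdgfra, the other measured fibroblast marker, by 0.09 (adjusted p = 0.722). Tagln and Cnn1 of smooth muscle were higher by 0.50 ± 0.08 (adjusted p = 0.0304) and 0.45 ± 0.07 (adjusted p = 0.0275), and neither passed without Dahl S 3 or any 1 Dahl R array.

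Among podocyte and parietal cell genes 1 of 19 passed, the intermediate filament gene Nes, higher by 1.18 ± 0.08 (adjusted p = 0.00165). Sox18, an endothelial transcription factor, read 1.19, 0.89 and 0.99 in Dahl S and 2.84, 2.67 and 2.84 in Dahl R (-1.76 ± 0.10, adjusted p = 0.000823), the only call of 16 endothelial genes, and passed with scan as a block and under normexp. Trpv6, a calcium channel of the distal tubule, was higher by 0.96 ± 0.07 (adjusted p = 0.00168), the only call of 18 calcium, magnesium, phosphate and vitamin D genes. Each of these lists thus had a share of calls near the 5.13% of all coding genes.

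Of 8 tested urothelium genes 3 passed, all lower in Dahl S and all encoding plaque proteins: Upk3a (-0.78 ± 0.10, adjusted p = 0.0129), Upk1b (-0.69 ± 0.08, adjusted p = 0.0125) and Upk2 (-0.65 ± 0.12, adjusted p = 0.0424). The plaque gene Upk1a differed by 0.04 ± 0.07 (adjusted p = 0.724). Upk3a read 0.77, 0.68 and 0.66 in Dahl S and 1.45, 1.65 and 1.35 in Dahl R. The 4 uroplakin markers summed to 3.75 to 4.04 against 5.67 to 6.61; urothelium lines the renal pelvis, and its share of the tissue was not tested. Without Dahl S 2, and with scan as a block, 0 of the 3 passed.

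Cd209a, a lectin of dendritic cells, read -2.31, -2.48 and -2.78 in Dahl S and -5.98, -6.44 and -6.84 in Dahl R, where it was well above background on 1 array (3.90 ± 0.24, adjusted p = 0.001). Fcgr3a, an Fc receptor of macrophages and natural killer cells, was lower (-0.71 ± 0.06, adjusted p = 0.003), and the macrophage genes Cd68 and Csf1r differed by -0.08 ± 0.09 and 0.25 ± 0.10 without passing (adjusted p = 0.629 and 0.214). Pou2af1, a B-cell coactivator, was higher by 1.49 ± 0.22 (adjusted p = 0.0213, lost without any 1 Dahl R array). The T-cell genes Cd3e and Cd3g lay at -0.52 ± 0.21 and -0.54 ± 0.21 (adjusted p = 0.202 and 0.205). In antigen presentation 0 of 28 tested genes passed, against 5.13% of all coding genes. Ccl19 was higher (0.96 ± 0.14, adjusted p = 0.0238), and Ccl5 (-0.73 ± 0.13, adjusted p = 0.04) and Il33 (-0.65 ± 0.13, adjusted p = 0.0465) were lower; 0 of these 3 passed without Dahl R 2, Dahl R 3 or Dahl S 3, or with scan as a block.

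Of 37 tested glucose genes 0 passed and of 58 in the citric acid cycle and respiratory chain 2 did, the complex I subunit genes Ndufa10 (0.52 ± 0.07, adjusted p = 0.0149) and Ndufb8 (-0.38 ± 0.07, adjusted p = 0.0374), in opposite directions, and neither passed with scan as a block or without Dahl R 2, Dahl R 3 or Dahl S 3. In amino acid metabolism 3 of 44 passed, a share near that of all coding genes: Bckdhb, of branched-chain breakdown (0.91 ± 0.08, adjusted p = 0.00316), was higher, and Bhmt, which remethylates homocysteine (-1.08 ± 0.18, adjusted p = 0.0327), and Agxt2, which clears dimethylarginines (-0.76 ± 0.11, adjusted p = 0.0187), were lower. In fatty acid oxidation and peroxisomes 3 of 45 passed, also near that share and all lower: Acsm3, given above, Acot12, an acetyl-CoA hydrolase (-1.03 ± 0.12, adjusted p = 0.00979), and the peroxisome protein Pex11a (-0.93 ± 0.15, adjusted p = 0.0261). Hpgd, which breaks down prostaglandins, was lower by -1.58 ± 0.19 (adjusted p = 0.0118), and Slc16a1, the lactate transporter, higher by 1.00 ± 0.10 (adjusted p = 0.00663). With scan as a block only Bckdhb and Pex11a passed of the 8 genes from Bckdhb on, and Bhmt, Agxt2 and Hpgd did not pass without Dahl S 2, Dahl R 2 or Dahl R 3. Calls were 0 also among 25 proximal tubule, 18 thick ascending limb and distal tubule, 65 cytosolic ribosomal and 35 proteasome genes. Over all coding genes the share was 5.13%.

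**Figure D5:**
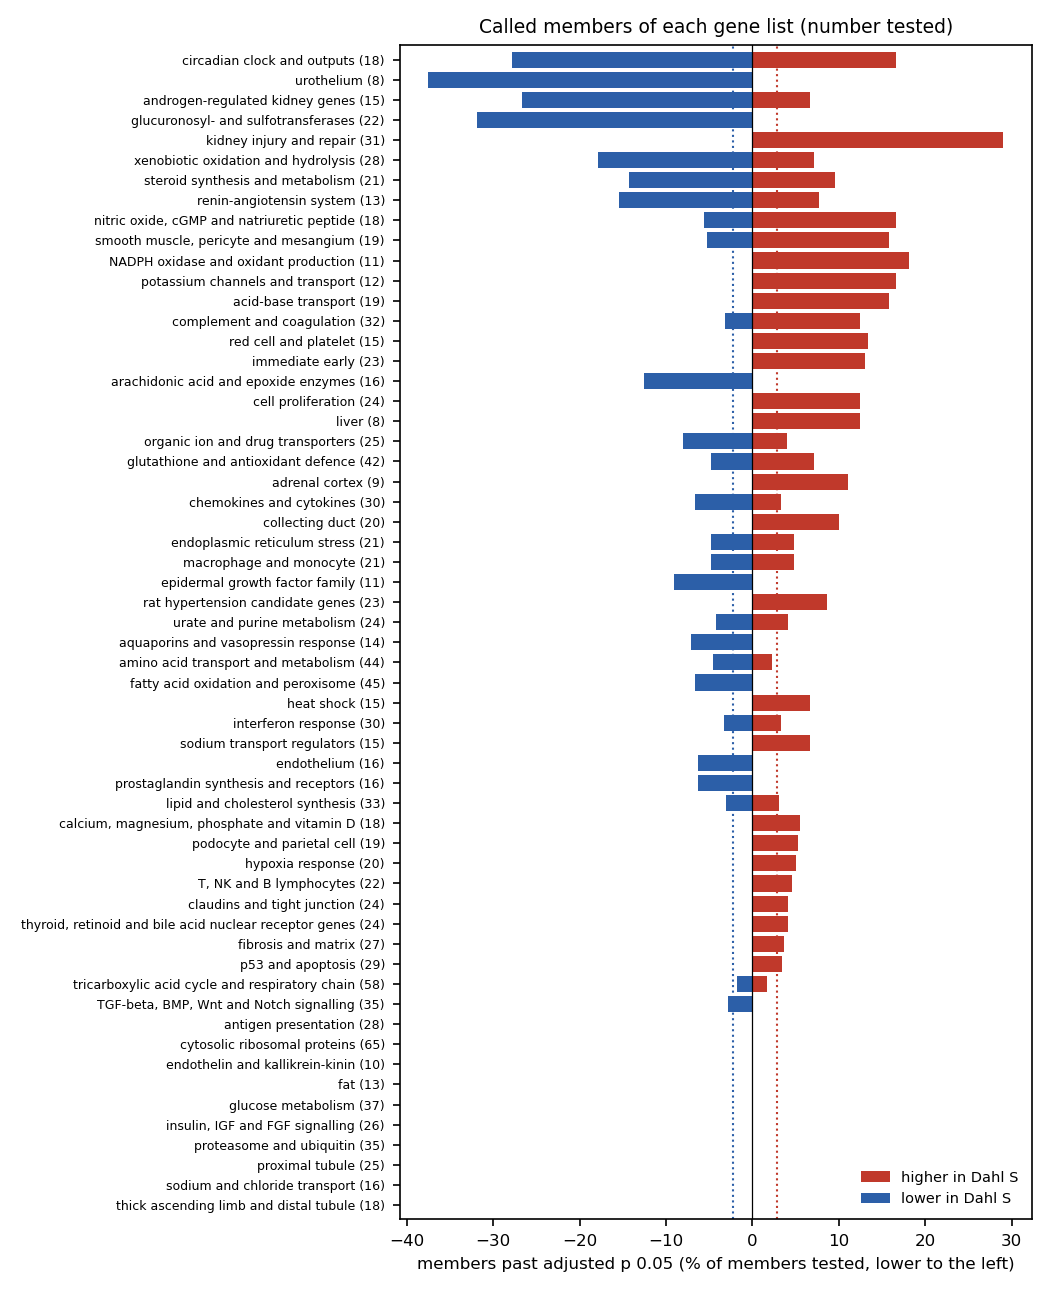
Members of each of 58 gene lists past adjusted p under 0.05, as a percentage of the members tested (number in brackets), drawn to the right where higher and to the left where lower in Dahl S; the dotted lines mark the shares of all coding genes, 2.88% higher and 2.25% lower. The clock list has the largest share of calls, 44.4%, the injury list only members higher, and the lists at the bottom have 0 calls.

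Called genes had a called neighbour more often than tested genes as a whole, though most had none. In the gene order of GRCr8, 10629 tested genes with a symbol could be placed, and of the 546 called ones 96 (17.6%) had a called gene directly beside them, against 9.85% of all tested genes. They formed 45 runs, 41 of them pairs and the longest of 4 genes, with 27 in 1 direction and 18 in both. Many runs are clusters of related genes, whose probes may share signal. The run of 4 Ly6 genes held Ly6c (0.54 ± 0.08), Ly6i (3.69 ± 0.17) and Ly6cl1 (1.08 ± 0.19), higher in Dahl S, beside Ly6al (-2.69 ± 0.14), which was lower. Natural killer receptor genes formed a pair in each direction, with Klra22 (1.26 ± 0.20) and Ly49i5 (0.77 ± 0.13) higher and Klra5 (-1.21 ± 0.13) and Ly49s7 (-1.01 ± 0.15) lower. Further pairs in 1 direction were Hsd3b5 with Hsd3b2, Cyp2d5 with Cyp2d1, Ugt1a9 with Ugt1a8 and Nat8 with Nat8f1, all lower, and Clca4 with Clca1 and Akr1c14 with Akr1c15, all higher.

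Other runs joined different kinds of gene or opposite directions. Banp lay beside Zc3h18 (1.18 ± 0.18), both higher in Dahl S. Zfp54 read -1.96, -1.83 and -1.84 in Dahl S and -0.31, -0.38 and -0.37 in Dahl R, while its neighbour Zfp53, another zinc finger gene, read -2.20, -2.08 and -2.0 against -4.00, -3.83 and -3.84. The pair thus differed by -1.52 ± 0.07 and 1.80 ± 0.09 in opposite directions, with adjusted p of 0.000315 and 0.000441. Tmem209, a nuclear envelope protein, was lower by -3.18 ± 0.16 (adjusted p = 0.000462) and above background on 2 Dahl S arrays, and Ssmem1 beside it was higher by 1.35 ± 0.09 (adjusted p = 0.00142). Prkg2 lay beside Bmp3, which was lower. These pairs were chosen after their values were seen.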

How the data were processed

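Per the file headers, the authors' scanner output came from Agilent Feature Extraction 10.5.1.1, and its processed signal is an intensity already background-subtracted and detrended across the slide, with no normalization between arrays. The deposited marks for spots well above background, saturated or outlying, the other columns used, are 0 or 1. The authors also deposited a table of 19407 probes whose values follow the log2 scanner signal; its columns each have a median of 9.63 for the 6 arrays, and its normalization and filter stay unknown.

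Here processed signals of 42136 non-control spots were scaled to the 75th percentile of their own array and logged, outlier spots were left out, and spots of a probe averaged. Probes well above background (at least 0.5 of spots) on at least 3 of the 6 arrays were tested with limma 3.58.1 (R 4.3.3) on strain alone, with Benjamini-Hochberg adjustment over all 16105 probes, of which 11682 were coding. RefSeq identifiers gave 14274 of 15361 coding probes a current symbol; the other 1087 kept the file's name. The probe with the highest mean stood for a gene; of 248 genes with several tested probes 17 had a call, 11 on some probes only and 0 in opposite directions. No coordinates are given for probes, since array and table differ in build. Spots saturated on these arrays numbered 0.

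Named genes were the 12 largest rises and falls above background on all 6 arrays, genes above background in 1 strain only (up to 12 each way), and in each of 58 lists up to 4 called members and up to 4 others from the list's defining genes. Other names were chosen after their values were seen, as were the zinc finger and other neighbour pairs. The members and lists were chosen with earlier results of these data known. Some members are counted in their lists but not reported here by name. The lists hold 1527 genes, of which 1235 were tested and 106 called. For normexp the median spot and local background signals were used, an intensity per the file headers. The other alternatives were quantile normalization, other percentiles and filters, outlier spots kept, scan time or replicate number as a block, all 9 arrays, an intensity trend, the authors' table and each array left out; array weights and the dim band were added after the data were seen. The fit was tested on simulated data. The number of arrays limits precision.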

Additional observations from a re-analysis of the deposited data

How the results depend on the processing

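Of the 598 coding probes that differed, all kept their direction under every alternative that measured them except normexp (523 of 598), outlier spots kept (595 of 598) and the authors' deposited table (592 of 595). With scan as a block, within the shared scan or with 1 array left out, direction was fixed in advance wherever the strains do not overlap. The count itself fell to 17 with normexp, 223 with no filter on dim probes, 82 with scan time as a block, 20 within the shared scan alone and 214 with all 9 arrays sharing the spread. It was 701 with quantile normalization, 709 with the percentile over probes detected on all 6 arrays, 550 with outlier spots kept, 738 with only probes above background on all 6 arrays, 837 with an intensity trend and 592 in the authors' table. Leaving out 1 array gave 165 to 639 calls; without Dahl S 1, 43.3% of the calls were higher in Dahl S against 56.9% with all arrays. Added after the data were seen, array weights gave 1318 calls, with a weight of 0.298 for Dahl S 1, and leaving out its dim band gave 730.

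Whether replicate numbers pair the rats is not in the labels. Same-numbered deviations correlated at 0.01, -0.02 and 0.05 and the other pairs at -0.04 to 0.02, which does not settle it with 3 arrays per strain. With the replicate number as a block 220 coding probes differed. Of the 123 called genes named by rule, 14 passed under normexp, 36 with scan as a block, 63 with the replicate block and 115 in the authors' table. Under normexp 12 turned positive: Hsd3b5 to 0.82, Mybphl to 0.78, Got1l1 to 1.07, Saxo2 to 0.95, Galp to 1.24, Krtap13-2 to 1.15, Psma8 and Mei1 to 0.98, Klk4 to 0.92, Slc14a1 to 0.10, Trib3 to 0.28 and Rnf151 to 1.07. Myc turned to -0.051 with outlier spots kept and to -0.065 in the authors' table. The cause was not tested for these changes.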
